A study of Saccharomyces cerevisiae with 4 samples.

Results

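The genes described here code for the MAP kinase cascade of the cell wall integrity pathway of budding yeast (Saccharomyces cerevisiae) and for the transcription factors below it. They are 9 of 6207 reading frames in the deposited table and were chosen by systematic name: PKC1 (YBL105C), BCK1 (YJL095W), MKK1 (YOR231W), MKK2 (YPL140C), SLT2 (YHR030C), its paralog KDX1 (YKL161C), RLM1 (YPL089C), SWI4 (YER111C) and SWI6 (YLR182W). Both groups were a wsc1 mutant of BY4741, a MATa laboratory strain, grown at 24 °C in rich medium. The treated part of each culture received Congo Red at 30 µg/ml, the untreated part did not, and cells were collected at 4 h. Congo Red interferes with the assembly of chitin and glucan in the wall. WSC1, listed here as SLG1, codes for a membrane sensor of wall stress, and the labels do not say which kind of mutation the strain carries. Both groups lack the intact sensor, and no strain with an intact WSC1 was used here.

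Background on the pathway helps to read the members. Wall stress is sensed at the plasma membrane and passed through the GTPase Rho1 to protein kinase C (Pkc1), which acts on a chain of kinases: the MAP kinase kinase kinase Bck1, the paired MAP kinase kinases Mkk1 and Mkk2, and the MAP kinase Slt2. Slt2 phosphorylates Rlm1, a MADS-box transcription factor that drives many wall genes, and also acts with SBF, the factor made of the DNA-binding subunit Swi4 and the regulatory subunit Swi6. Kdx1 resembles Slt2 but lacks residues needed for kinase activity. SLT2 and KDX1 are known as genes whose own transcription the pathway raises. Kinase activity is set by phosphorylation, which transcript arrays do not measure.

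Each of 4 two-colour arrays gave 1 log ratio per reading frame between the treated and the untreated part of a culture. Congo Red RNA carried Cy3 on arrays 1 and 3 and Cy5 on arrays 2 and 4. The 4 arrays come from 2 cultures, and the labels do not tie an array to its culture. The numerator and the log base are not stated either, and the values are read as log2 of Congo Red over untreated. This direction is likely rather than settled. Of 21 cell wall integrity targets with values on all 4 arrays, none of them a member, 20 kept a single sign as deposited. With arrays 2 and 4 turned, 0 did. The sign was set so that their median is above 0. These targets were chosen with earlier results of these data known, so the contrast of 20 with 0 is not independent support. Over all tested genes, arrays of opposite dye correlated weakly (mean Pearson r of 0.10 across genes, from -0.05 to 0.33), and arrays of the same dye more strongly (0.64 to 0.71). SLT2 and KDX1 belong to the same known response, so their positive sign is not independent evidence. No array held a value for SLG1, so the transcript of the mutated gene gives no check of the labels. Array medians ran from -0.14 to -0.08 log units, and 19.6 to 47.6% of the reading frames were empty on an array. Ratios do not show how far a spot stood above background, and the number of arrays limits the precision.

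The comparison asks which genes of the cascade differed with Congo Red in the mutant. SLT2, the gene of the last kinase, and its paralog KDX1 rose, and the other members with values on all 4 arrays, PKC1 and BCK1, were not called. PKC1, BCK1, SLT2 and KDX1 could be tested, because 3080 reading frames (49.6%) had values on all arrays. RLM1 and SWI4 had values on 2 arrays, and MKK1, MKK2 and SWI6 on 1. These 5 genes are given as values with no test. Of the 4 tested members 2 were called higher and 0 lower by limma on culture means, where 1.53% of all tested reading frames were called higher and 1.07% lower (2.6% in either direction).

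**Figure D1:**
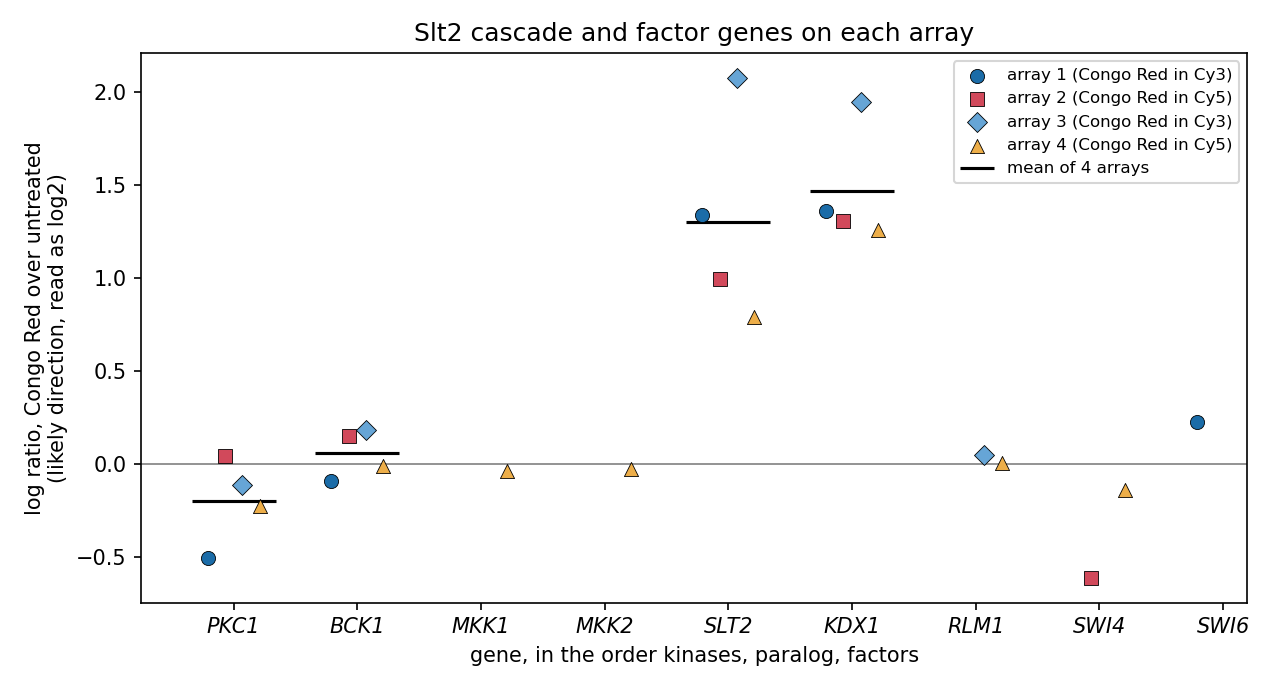
Log ratio of Congo Red over untreated (vertical axis, read as log2, likely direction) of the 9 genes (horizontal axis) on each array, with marker and colour for the array and a bar for the mean of the 4 tested genes. SLT2 and KDX1 lie between 0.79 and 2.07 on every array, and no other member's value exceeds 0.23.

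SLT2, the gene of the pathway's MAP kinase, had log ratios of 1.34, 0.99, 2.07 and 0.79 on arrays 1 to 4. All 4 values lay above 0, with the highest on array 3 and the lowest on array 4. It rose by a mean of 1.30 ± 0.12 log units (moderated SE, n = 2 cultures; limma, adjusted p = 0.0198), which is 2.46-fold if the base is 2. Its culture means were 1.16 (arrays 1 and 2) and 1.43 (arrays 3 and 4) under one pairing. Under the other they were 1.06 (arrays 1 and 4) and 1.53 (arrays 2 and 3). The moderated SE draws on variance pooled over genes, so it does not measure how far these culture means lie apart. SLT2 ranked 9th from the top of the values on array 3, 38th on array 1, 93rd on array 4 and 106th on array 2, so the array with the largest value also gave it the highest place. By its mean it was 19th of 3080, and 23 reading frames, itself included, had a lowest value of at least 0.79.

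KDX1, the gene of the Slt2-like protein, had log ratios of 1.36, 1.31, 1.95 and 1.26 on arrays 1 to 4. Values on arrays 1, 2 and 4 lay close together, and array 3 stood above them. It rose by a mean of 1.47 ± 0.11 log units (moderated SE, n = 2 cultures; limma, adjusted p = 0.0167), which is 2.77-fold if the base is 2. Its culture means were 1.33 and 1.60 with arrays 1 and 2 and arrays 3 and 4 together, and 1.31 and 1.62 for the other pairing. KDX1 was 14th of 3080 by its mean, and 10 reading frames, itself included, had a lowest value of at least 1.26. SLT2 and KDX1 were the members above 0 on all 4 arrays, as were 7.44% of all tested reading frames.

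Both calls depend on the fit and on single arrays. An array can be left out in a second fit, in which each array counts as a sample and the dye is a term, and which called both genes on all 4 arrays (limma, adjusted p = 0.00798 for SLT2 and 0.00438 for KDX1), where it called 10.4% of all tested reading frames. Without array 2 the adjusted p was 0.124 for SLT2 and 0.0914 for KDX1, where limma called 13 of all 3080 tested reading frames. Without array 4 the adjusted p was 0.0745 and 0.0592, where limma called 25 of the 3080. Both genes stayed called without array 1, where limma called 375, and without array 3, where it called 823. Over these fits on 3 arrays the estimate lay between 1.11 and 1.48 for SLT2 and between 1.32 and 1.61 for KDX1. It weighs both dye orientations equally and is not the plain average of the 3 arrays. Scaling the arrays to equal spread ended both calls (limma, adjusted p = 0.0653 for SLT2 and 0.0636 for KDX1). Centring each array left both called (limma, adjusted p = 0.0495 for each). Of all 3080 tested reading frames, limma called 12 after scaling and 32 after centring.

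**Figure D2:**
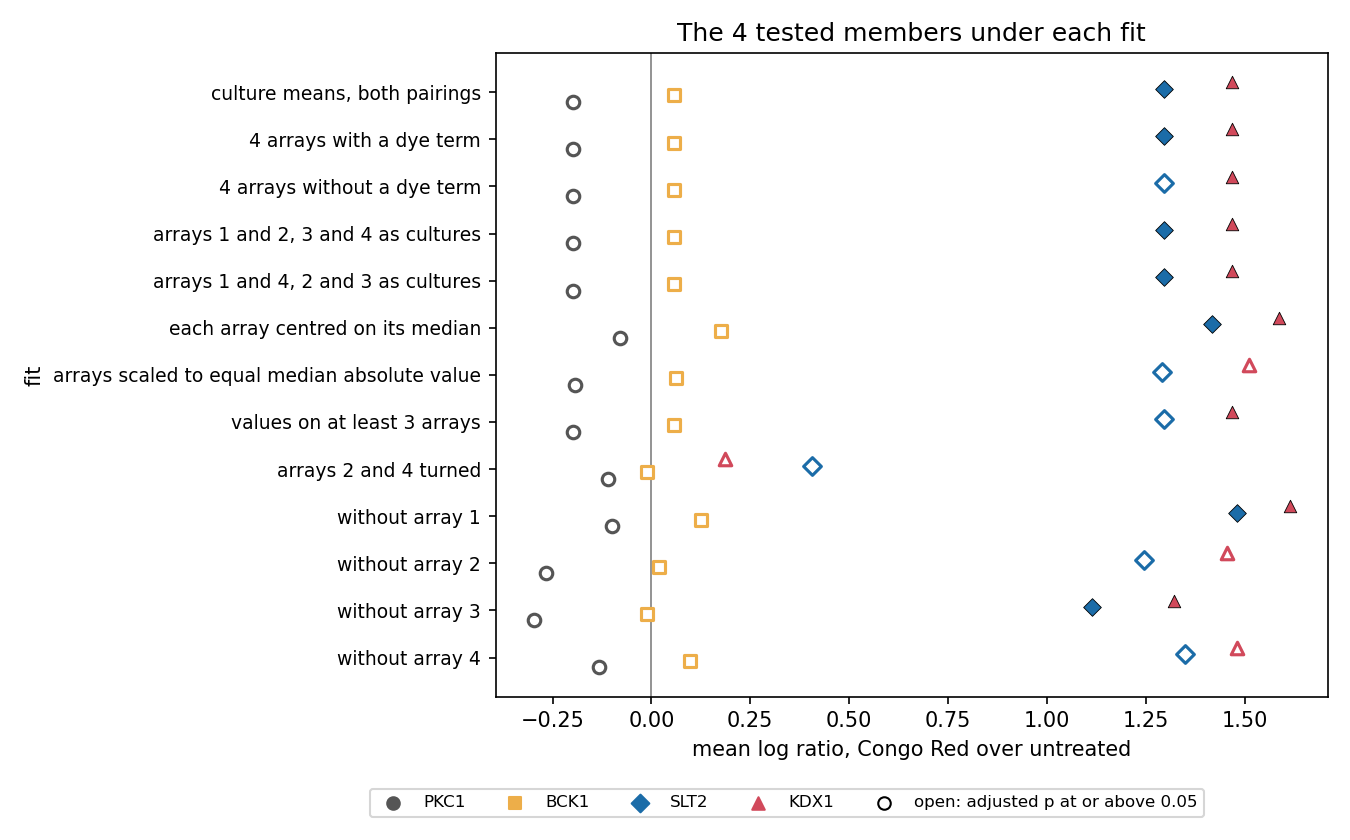
Mean log ratio of Congo Red over untreated (horizontal axis) of PKC1, BCK1, SLT2 and KDX1 under each fit (vertical axis), filled where limma's adjusted p is below 0.05. The estimates for SLT2 and KDX1 stay between 1.11 and 1.61 except with arrays 2 and 4 turned, where they are 0.41 and 0.19. The calls come and go with the fit. In fits without an array, the estimate weighs both dye orientations equally and is not a plain average.

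SLT2 and KDX1 did not differ beyond their spread. SLT2 minus KDX1 was -0.02, -0.31, 0.13 and -0.47 log units on arrays 1 to 4. SLT2 was lower on 3 of the 4 arrays, and the distance was largest on array 4. The mean difference was -0.17 ± 0.27 (SD, n = 4 arrays; exact two-sided sign-flip permutation, p = 0.375), and with 4 arrays this test cannot reach 0.05. It counts the 4 arrays as independent although they are dye swaps of 2 cultures, and over 2 cultures the smallest p would be 0.5. The labels do not say what kind of probe was spotted, so whether the spots tell these related genes apart was not tested.

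At the head of the cascade, PKC1, the protein kinase C gene, had log ratios of -0.51, 0.04, -0.11 and -0.22 on arrays 1 to 4. Array 1 was the lowest and array 2 was the single value above 0. The mean was -0.20 ± 0.10 (moderated SE, n = 2 cultures; limma, adjusted p = 0.254), against a median of -0.10 over all tested reading frames. BCK1, the gene of the MAP kinase kinase kinase, had -0.09, 0.15, 0.18 and -0.01. Its values fell on both sides of 0 and averaged 0.06 ± 0.09 (moderated SE, n = 2 cultures; limma, adjusted p = 0.682). Neither gene was called under any of the 12 other fits.

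SLT2 and KDX1 lay above BCK1 and PKC1 on every array. SLT2 exceeded BCK1 by 0.80 to 1.89 log units and PKC1 by 0.95 to 2.18 on the 4 arrays. KDX1 exceeded BCK1 by 1.16 to 1.76 and PKC1 by 1.26 to 2.06. BCK1 exceeded PKC1 as well, by 0.10 to 0.42. Each of these 5 differences had the same sign on 4 of 4 arrays, and in the exact two-sided sign-flip permutation test over arrays each had the smallest p it can give, 0.15 after Benjamini-Hochberg adjustment over the 6 pairs of tested members. This test, too, counts the 4 arrays as independent.

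The MAP kinase kinase genes had a value on array 4 alone, -0.04 for MKK1 and -0.03 for MKK2. With 1 array, the difference of -0.01 between these paralogs has no replicate check. Congo Red was in Cy5 on this array, so the dye could not be averaged out. Its values also had the smallest spread, with an SD of 0.33 against 0.48 to 0.52 on the other arrays. A value on array 4 alone was found for 671 reading frames (10.8%). RLM1, the gene of the MADS-box factor, had 0.05 on array 3 and 0.01 on array 4, arrays of opposite dye, and 583 reading frames (9.39%) shared this pattern of filled cells. Its paralog SMP1, at 0.05 and 0.14 on the same arrays, had a mean of 0.01 over all 4 arrays and was not called (limma, adjusted p = 0.96).

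For the SBF genes, too, the dye could not be averaged out. SWI4 had -0.61 on array 2 and -0.14 on array 4, both with Congo Red in Cy5, a pattern of filled cells shared by 42 reading frames (0.677%). Array 2 put SWI4 at the 10.8th percentile of that array and array 4 at the 40.1st, so its distance from other genes was not alike on the arrays. SWI6 had a single value, 0.23 on array 1, at the 78.4th percentile of that array. A value on array 1 alone was found for 8 reading frames (0.129%). No array held both genes, so the SBF subunits could not be set against each other.

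Array 4 held 8 of the 9 members and lets them be ordered within 1 hybridisation. From high to low they were KDX1 at 1.26, SLT2 at 0.79, RLM1 at 0.01, BCK1 at -0.01, MKK2 at -0.03, MKK1 at -0.04, SWI4 at -0.14 and PKC1 at -0.22. KDX1 and SLT2 stood at the 99.4th and 98.1st percentile of the 4991 values of that array, and the other 6 between the 28.3rd and the 64.3rd. These 6 spanned 0.23 log units, and a single array has no spread against which to test their order. KDX1 and SLT2 were 0.47 apart on this array, and SLT2 was 0.78 above RLM1.

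Both dye orientations showed SLT2 and KDX1 above 0, but with unequal size. SLT2 averaged 0.89 where Congo Red RNA carried Cy5 and 1.70 where it carried Cy3. KDX1 averaged 1.28 with Congo Red in Cy5 and 1.65 with Congo Red in Cy3. The dye effect, which is the Cy5 average minus the Cy3 average divided by 2, was -0.41 for SLT2 and -0.19 for KDX1, and neither passed (limma with a dye term, adjusted p = 0.0954 and 0.279). For PKC1 it was 0.11 and for BCK1 0.01 (adjusted p = 0.465 and 0.938). Of all tested reading frames 16% had a called dye effect, and limma called it for 0 of the 4 tested members, with 1 at an unadjusted p below 0.05 (SLT2). If arrays 2 and 4 held channel ratios and were turned, the mean would be 0.41 for SLT2 and 0.19 for KDX1, with neither called (limma, adjusted p = 0.123 and 0.314).

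**Figure D3:**
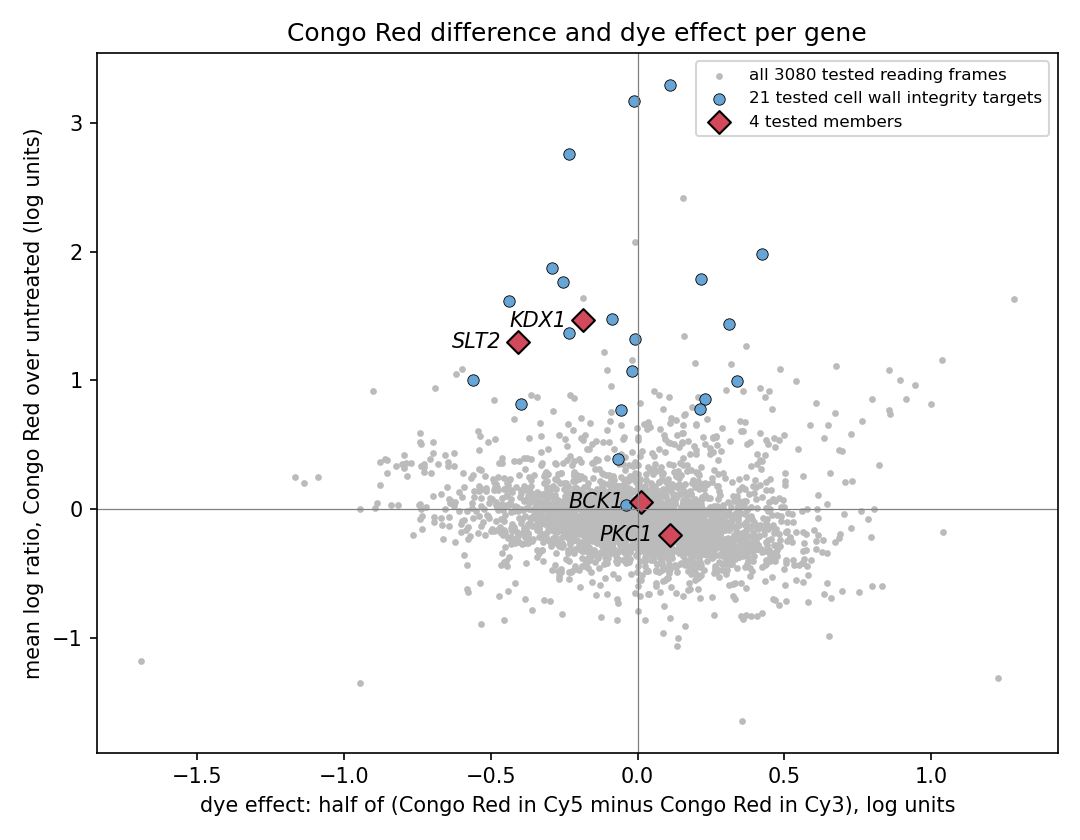
Mean log ratio of Congo Red over untreated (vertical axis, log units) against the dye effect (horizontal axis, log units) of 3080 tested reading frames, with 21 cell wall integrity targets and the 4 tested members marked. SLT2 and KDX1 lie among the targets, to the left of 0 at -0.41 and -0.19, and BCK1 and PKC1 lie within the main cloud.

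The reading frames with values most like those of SLT2 were KDX1, PRY2, PIR5 and SVS1, by Euclidean distance over the 4 arrays (0.58, 0.61, 0.62 and 0.68 log units). PRY2, the gene of a secreted sterol-binding protein, had 1.43, 0.97, 1.78 and 1.31 on arrays 1 to 4. PIR5, of the family of PIR wall proteins, had 1.20, 0.73, 2.17 and 0.25. SVS1, coding for a wall and vacuolar protein, had 1.40, 0.42, 1.94 and 0.45. Its dye effect of -0.62 was called (limma with a dye term, adjusted p = 0.026). All 4 genes shared the maximum on array 3, and PIR5 and SVS1 had lower values than SLT2 on arrays 2 and 4. For KDX1 the nearest were SRL3, PRY2, PIR3 and SLT2, at distances of 0.24, 0.39, 0.50 and 0.58. SRL3 had 1.36, 1.48, 1.78 and 1.31, and PIR3, the gene of another PIR wall protein, had 1.18, 1.32, 1.48 and 1.30. PIR5 was called with an adjusted p of 0.0498, SVS1 with 0.0286, PRY2 with 0.0227, PIR3 with 0.0167 and SRL3 with 0.016 (limma). All were picked by these same values, so their calls and their maximum on array 3 are not independent of the choice.

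**Figure D4:**
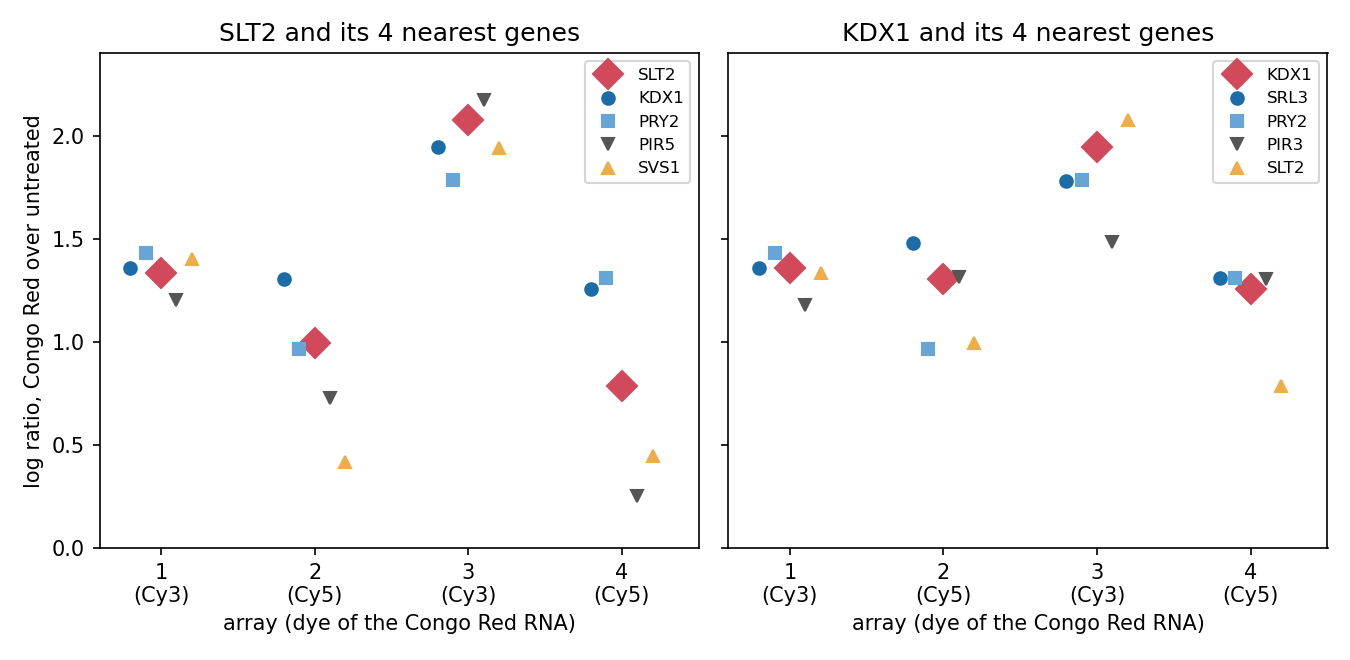
Log ratio of Congo Red over untreated (vertical axis) on each array (horizontal axis, with the dye of the Congo Red RNA) of SLT2 on the left and KDX1 on the right, each with its 4 nearest reading frames, markers set side by side for legibility. All of these genes are highest on array 3, and the genes nearest to SLT2 spread most on array 4, from 0.25 to 1.31. The neighbours were picked by these same values.

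Genes around the cascade were counted in lists. Among 24 sensors, Rho1 regulators, phosphatases and other partners of the kinases, 8 were tested, 1 rose, 0 fell and 7 were not called. Of all 3080 tested reading frames, limma on culture means called 47 higher and the second fit 121. The one that rose was MID2, a wall stress sensor gene, with 0.92, 1.46, 0.96 and 1.21 on arrays 1 to 4 and a mean of 1.14 ± 0.09 (moderated SE, n = 2 cultures; limma, adjusted p = 0.0186). The median of the 8 was -0.01, against -0.10 for all tested reading frames. RHO1, the gene of the GTPase above Pkc1, was at 0.44 (limma, adjusted p = 0.0889, but 0.0244 in the second fit, which called 2 of the 8 higher), with 0.03 and 0.19 where Congo Red was in Cy5 and 0.77 and 0.77 where it was in Cy3, a called dye effect of -0.33 (limma with a dye term, adjusted p = 0.0404). LRG1, coding for an activator of GTP hydrolysis by Rho1, had 1.34, 2.99, -1.08 and 1.41 and was not called (limma, adjusted p = 0.207). Of 4 listed genes of phosphatases that act on Slt2, MSG5 averaged -0.04, SDP1 -0.14 and PTP3 -0.11, none of them called (limma, adjusted p = 0.793, 0.339 and 0.458). The other, PTP2, had empty cells on arrays 1 and 2 and stood at 1.01 on array 3 and 0.75 on array 4.

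Of 22 cell wall integrity targets, 21 were tested, 18 rose, 0 fell and 3 were not called, with a median of 1.37 log units. After centring each array 14 were called higher, and in the second fit 19. Of all 3080 tested reading frames, limma on culture means called 47 higher, 30 after centring, and the second fit called 121 higher. This list set the sign of the ratios, so its direction is no result. It was also chosen with earlier results of these data known, so its number of calls is not independent of the choice. By their means, 12 of the 21 lay above SLT2 and 9 above KDX1, which places both genes in the middle of the list. NCW2, a wall mannoprotein gene at 3.30, and PRM5, a membrane protein gene at 3.17, stood highest, and CRG1, PUN1, YPS3 and PST1 had 2.76, 1.87, 1.98 and 1.79. PIR1 at 0.77, KTR2 at 0.39 and CHS3 at 0.03 were not called (limma, adjusted p = 0.0603, 0.155 and 0.811).

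Of 18 genes known as targets of SBF, 13 were tested, with a median of 0.12 log units. Limma on culture means called none of the 13, where it called 2.6% of all tested reading frames. SRL1, a mannoprotein gene, was at 0.74 with 0.40, 0.75, 0.75 and 1.05 on arrays 1 to 4 (limma, adjusted p = 0.0638). CSI2 was at 0.46 and TOS4, the gene of a factor that binds chromatin, at -0.42 (limma, adjusted p = 0.085 and 0.105). The second fit, with its dye term, called 2 of the 13 higher and 1 lower. Of all 3080 tested reading frames it called 121 higher and 199 lower, 10.4% in either direction. PCL1, a G1 cyclin gene, was at -0.36 and FKS1, a glucan synthase gene, at 0.34, without a call (limma, adjusted p = 0.152 and 0.171).

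**Figure D5:**
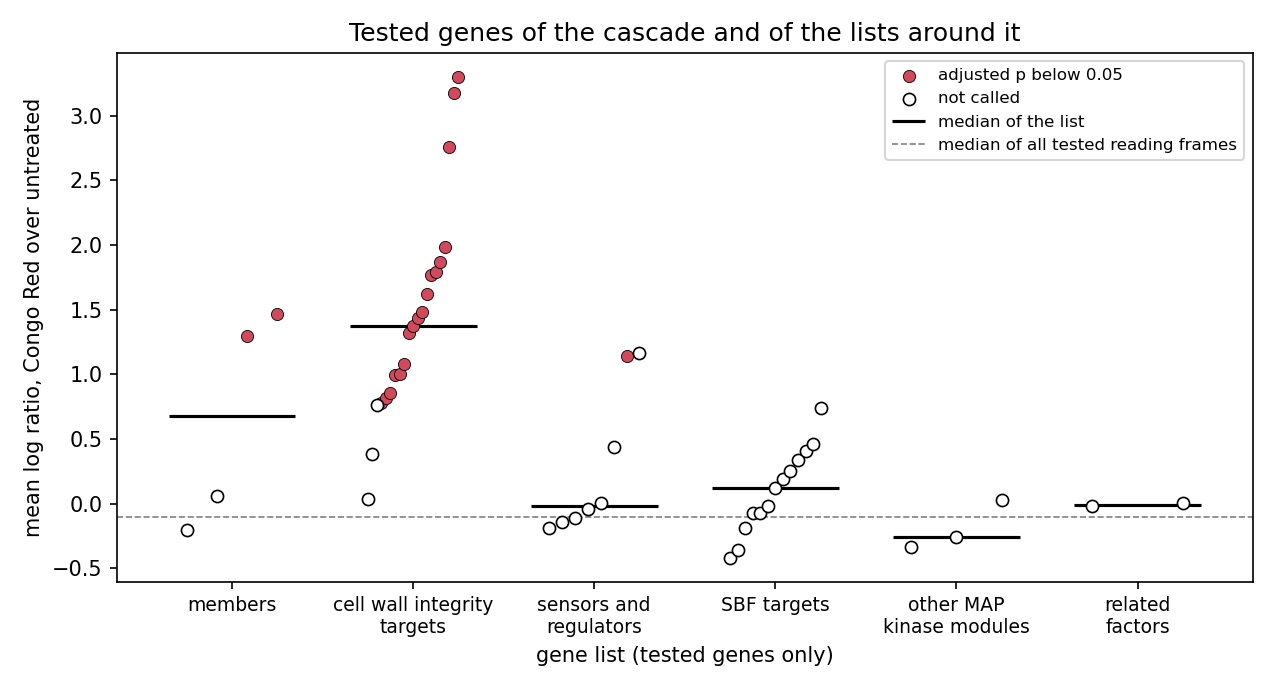
Mean log ratio of Congo Red over untreated (vertical axis) of the tested genes in each list (horizontal axis), filled where limma's adjusted p is below 0.05, with a bar at the list's median and a dashed line at the median of all tested reading frames (-0.10). The cell wall integrity targets have a median of 1.37, the sensors and regulators -0.01 and the SBF targets 0.12.

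Genes of other yeast MAP kinases gave lower values than SLT2 and KDX1 on each array where both were measured. HOG1, the osmotic stress MAP kinase gene, had -0.12, 0.50 and 0.11 on arrays 2, 3 and 4. FUS3, the MAP kinase gene of mating, had -0.49, 0.11 and -0.11, and KSS1, that of filamentous growth, had -0.0026, 1.03 and 0.32. SLT2 exceeded KSS1 by 0.47 to 1.04, HOG1 by 0.67 to 1.57 and FUS3 by 0.90 to 1.96 over these 3 arrays, and SMK1, the sporulation MAP kinase gene, by 0.87 on array 4. KDX1 exceeded KSS1 by 0.92 to 1.31. These genes lacked a value on array 1, so they were not part of the fit. Of 12 genes in the mating, osmotic and sporulation cascades 3 were tested. Limma on culture means called none of these, where it called 2.6% of all tested reading frames. STE7 was at -0.33, SSK2 at -0.26 and PBS2 at 0.03 (limma, adjusted p = 0.223, 0.18 and 0.85).

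Factors related to RLM1, SWI4 and SWI6 were sparsely measured. Of 7 such genes SMP1 and SKN7 were tested and not called, with means of 0.01 and -0.02 (limma, adjusted p = 0.96 and 0.908). MBP1, which codes for the partner of Swi6 in MBF, had -0.29, 0.73 and -0.55 on arrays 1, 3 and 4. On array 4, the one array with both genes, SWI4 was 0.41 above MBP1.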

How the data were processed

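Total RNA was labelled by reverse transcription with Cy5 or Cy3, per the labels' protocols. Values in the deposited table are log ratios, taken to be log2, with 1 per array for each reading frame. How the authors corrected, normalized and filtered them stays unstated in the labels, as do the log base and numerator. Of 6209 rows, 2 name control spots and were left out, and values were used as deposited. Symbols come from RefSeq's gene table of S288C assembly R64 by systematic name (5654 of 6207 matched). Coordinates are left out, since the array design has no stated build.

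The replicate is the culture. Arrays of opposite dye were averaged under both pairings that give each culture both orientations, each fitted in R 4.3.3 with limma 3.58.1 (lmFit, eBayes) and an intercept alone. The larger p and SE were kept, with Benjamini-Hochberg adjustment over 3080 reading frames and a threshold of 0.05. Each moderated SE draws on the variance pooled over genes and is not the spread of that gene between its cultures. An SE near 0.09 is close to the lowest this fit can give. Dye effects come from limma on 4 arrays with a dye term. Fits were tested on simulated data with independent noise on each array. That test does not cover variation shared by the arrays of a culture.

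Members and lists were chosen with earlier results of these data known. Besides the members, genes were named by this rule: up to 6 called genes per list by size of the mean, the 3 largest means where fewer than 3 were called, and the 4 reading frames nearest to each called member. Others are list members, named after their values were seen, or genes next to SLT2 and KDX1 on the chromosome.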

Additional observations from a re-analysis of the deposited data

Results flagged for a closer look

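KDX1 had 1 array far from the other 3. Its value was 1.95 on array 3, against 1.26 to 1.36 on arrays 1, 2 and 4, and the gap took up 0.852 of the whole range, above Dixon's critical value for 4 values. Among the 26 genes examined this way it was the single one past that value, and chance flags about 5% of such groups. SLT2 also had its highest value, 2.07, on array 3. In the fit with a dye term and without array 3, the estimate was 1.32 for KDX1 and 1.11 for SLT2. It weighs both dye orientations equally and is not the plain average of arrays 1, 2 and 4.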

How the results depend on the processing

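Limma on culture means called 80 reading frames, 47 higher and 33 lower. It called 320 on single arrays with dye fitted (121 higher, 199 lower) and 36 without the term (28 and 8). It called 84 where arrays 1 and 2 formed a culture (48 and 36), but 787 where arrays 1 and 4 did (255 and 532). The number was 32 after centring (30 and 2), 12 after scaling (10 and 2) and 19 when values on 3 arrays sufficed (17 and 2). With arrays 2 and 4 turned it called 0, with 857 at an unadjusted p below 0.05. Without array 1 it called 375, without array 2 13, without array 3 823 and without array 4 25. All 80 were among the 320.

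Of the 4 tested members, 2 were called. The number was 1 without a dye term (KDX1; SLT2 adjusted p = 0.0606) and 1 when values on 3 arrays sufficed (KDX1; SLT2 adjusted p = 0.0598). It was 0 after scaling (2 at an unadjusted p below 0.05) and 0 with arrays 2 and 4 turned (1 at an unadjusted p below 0.05), and 0 to 2 without 1 array, with 0 reached without array 2 or array 4 (2 at an unadjusted p below 0.05 each time). Estimates for SLT2 and KDX1 stayed above 0 throughout. The estimate for BCK1 went to -0.011 with arrays 2 and 4 turned. When 1 array was left out it lay between -0.010 (without array 3) and 0.13 (without array 1). These last values come from the fit with a dye term, which weighs both orientations equally, and are not plain averages of the arrays kept. SLT2 minus KDX1 was 0.22 with those arrays turned. Dye effects were called for 493 reading frames and for 0 to 661 without 1 array (747 at an unadjusted p below 0.05 without array 2, where limma called 0). The cause of these changes was not tested. Each ratio already pairs the treated and untreated part of a culture, so no further replicate block was fitted.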

Other observations

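Some genes around the cascade had empty cells and are named here after their values were seen. MTL1, coding for a sensor related to Mid2, had 0.82 on array 4 alone. WSC2 had -0.51 on array 3 and 0.56 on array 4, TUS1 had -0.70 and 0.41, and CDC37 had -0.67 and 0.17, each with a sign that differed between arrays of opposite dye.

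Genes next to the members on the chromosome, by the order of RefSeq's table, were also looked at. Of the protein-coding genes up to 2 places from KDX1 on chromosome XI, PIR3 was at 1.32 (limma, adjusted p = 0.0167) and ELF1 at 0.34 (limma, adjusted p = 0.152), while YKL162C and RCN1 had empty cells. Beside SLT2 on chromosome VIII, YHI9 was at -0.35 (limma, adjusted p = 0.15) and the others had empty cells. Genes beside the other members were not called or had empty cells.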
